A study of Mus musculus with 12 samples.

Results

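The 10 HoxB cluster genes (Hoxb1, Hoxb2, Hoxb3, Hoxb4, Hoxb5, Hoxb6, Hoxb7, Hoxb8, Hoxb9 and Hoxb13) were followed from lumbar to lumbosacral sensory neurons of the mouse. They were taken from the 41388 genes of the deposited tables by the symbols that their Ensembl identifiers map to. All 10 lie on the plus strand of chromosome 11 between bases 96194316 and 96368256 (GRCm38). Transcription runs from Hoxb13 towards Hoxb1, so Hoxb1 marks the 3′ end of the cluster and Hoxb13 the 5′ end. Hoxb13 lies 74009 bases from Hoxb9, apart from the rest.

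Hox genes encode homeodomain transcription factors that give cells a position along the head-to-tail axis. Genes at the 3′ end of a cluster are switched on earlier and reach further towards the head than genes at the 5′ end, and many neurons keep part of this pattern in adult life. Hox proteins bind DNA with TALE cofactors of the Pbx, Meis and Prep families, and Trithorax and Polycomb complexes hold their genes in open or closed chromatin.

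RNA was measured in dorsal root ganglion cells of C57BL/6 mice aged 3 months, sorted for EGFP. All mice carried RetFloxedEGFP, a knock-in at the Ret locus that yields EGFP after recombination, together with Cre in the sodium channel gene NaV1.8 (allele Scn10a<tm2(cre)Jnw>). For the 4 libraries of the second submission, the genotype field names only 1 of these alleles, while the source names give both. Ganglia were pooled by sex from lumbar levels L3 to L5 (L345) or from L6 and S1 (L6S1). There were 3 libraries in each of 4 groups, lettered A, B and C except for female L345, which has B, C and D. Each library came from a pool of 2 to 8 mice. By these labels both levels carry the same Ret knock-in and Cre, and no group without the alleles is present. The Cre limits labelling to cells with a history of NaV1.8 expression, which the submitters describe as small unmyelinated neurons that express Ret.

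Library totals ranged from 16176436 to 26694404 counts, and 3 counts, used as the floor, equalled 0.112 to 0.185 CPM (counts scaled to a common library total). Reads carried no molecular identifiers, and floors cover counting error only. The 12 listed markers of small unmyelinated sensory neurons were all detected and summed to 16655 to 18358 CPM at L345 and 18780 to 25971 CPM at L6S1. Markers of other cells were present too: satellite glia summed to 1261 to 1768 against 783 to 1835 CPM, Schwann cells to 2445 to 2846 against 2561 to 3875 CPM, large myelinated neurons to 553 to 930 against 223 to 777 CPM, endothelial cells to 1.67 to 3.47 against 1.06 to 10.8 CPM and red blood cells to 0.191 to 3.32 against 0.582 to 2.58 CPM. Like the small-neuron sum, fibroblast markers (68.9 to 94.0 against 123 to 319 CPM) and immune markers (3.40 to 4.72 against 10.0 to 158 CPM) were higher in every L6S1 library than in any L345 library. Female L6S1 C stood apart with the highest immune sum, against 15.4 CPM in the next library. None of the listed markers was at or under 3 counts in all 12 libraries.

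In L6S1 neurons Hoxb5, Hoxb6 and Hoxb7 fell to 0.417, 0.189 and 0.120 of their L345 levels, and in each the 6 L6S1 libraries all lay below the 6 L345 libraries, as they did in 1.22% of all tested genes. Hoxb2, Hoxb3 and Hoxb4 had lower means at L6S1 and did not pass the test. Hoxb9 ranged as widely within a level as between levels, and Hoxb1, Hoxb8 and Hoxb13 were at or under 1 count in every library.

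Genes were tested with edgeR on the counts, with 1 mean per group and both sexes weighted equally. Calls were made where the p-value, adjusted by Benjamini-Hochberg over all tested genes, was under 0.05. Of the 10 members, 7 passed the filter on low counts, and edgeR called 3 of these 7, all lower at L6S1. The same test called 2.33% of all 15281 genes tested (356 genes, 222 higher and 134 lower), and 0.877% were called lower. At an unadjusted p under 0.05, edgeR passed 6 of the 7 members and 26.6% of all tested genes. DESeq2 called 3 of 7 members and 9.94% of all tested genes, and limma-voom 5 of 7 and 21.4%. That background moves with single libraries. It was 245 and 261 genes without female L6S1 B or C, 4031 without female L6S1 A, 883 without female L345 D, and 80 (without female L345 B) to 186 (without male L345 B) when any other single library was left out. With upper-quartile scaling it was 412 higher and 133 lower. All 7 tested members had a log2 fold change under 0, as did 55.5% of all tested genes. The median log2 fold change was -1.26 over the 7 tested members and -0.06 over all tested genes. Whether fewer cells with a transcript or less transcript per cell underlies a lower level cannot be told apart in bulk RNA. Whether pools shared mice is not given in the labels, so p-values measure the spread between these libraries.

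**Figure D1:**
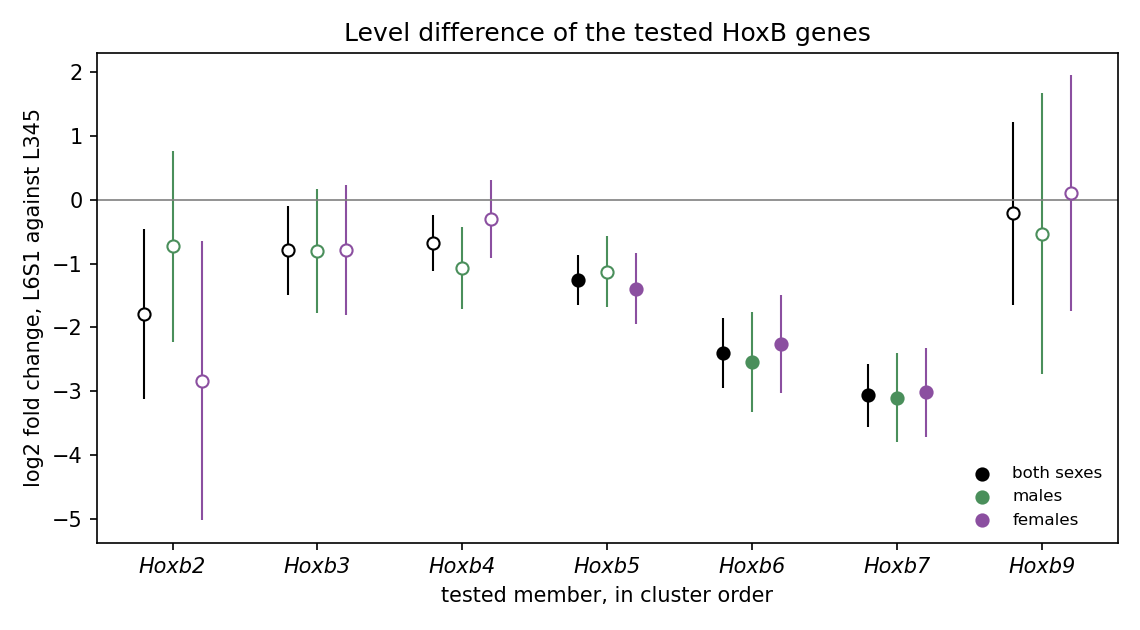
Log2 fold change between L6S1 and L345 with its 95% confidence interval for the 7 tested members in cluster order, for both sexes and within each sex. Filled points passed the edgeR test at an adjusted p under 0.05, open points did not, and over both sexes Hoxb7 lies lowest, at -3.06.

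Hoxb1, which patterns the hindbrain, had 0 counts in all 12 libraries. Its neighbour Hoxb2, another hindbrain gene (chr11:96350525-96354012), lay near the floor of 3 counts, with a median of 8 counts at L345 and 2 at L6S1. Hoxb2 counts were 9, 7 and 10 in male L345, 3, 7 and 11 in female L345, 5, 2 and 11 in male L6S1, and 2, 0 and 0 in female L6S1. Male L6S1 C thus matched the highest L345 library while female L6S1 B and C had none, and the levels overlap. The log2 fold change of Hoxb2 was -1.79 ± 0.62 (SE, edgeR adjusted p = 0.105). It was -0.91 with female L6S1 B and C left out, which leaves only female L6S1 A in its group. Without female L6S1 A it passed, at -3.22 ± 0.85 (edgeR adjusted p = 0.0162), in a fit that called 4031 genes in place of 356.

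Hoxb3 (chr11:96323326-96347930), which acts in the hindbrain and pharyngeal arches, had 45, 28 and 58 counts in male L345, 46, 35 and 38 in female L345, 19, 17 and 50 in male L6S1, and 23, 8 and 22 in female L6S1. Male L6S1 C lay inside the L345 range of counts and, in CPM, all 6 L6S1 libraries had less than the mean of L345 in the same sex. The log2 fold change was -0.79 ± 0.33 (edgeR adjusted p = 0.151). Without female L6S1 A it passed, at -1.02 ± 0.33 (edgeR adjusted p = 0.0383), again in the fit that called 4031 genes in place of 356. Of the 4251 exon bases of Hoxb3, 52.9% lie opposite exons of the antisense gene Hoxb3os, as do 27.3% of those of Hoxb2. Without a stated strand setting, the reads of sense and antisense genes cannot be told apart. Hoxb3os itself had 0.550 ± 0.232 and 0.372 ± 0.142 CPM (SD, n = 6) and was not called (-0.60 ± 0.38, edgeR adjusted p = 0.312).

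Hoxb4 (chr11:96318267-96321638), best known for expanding blood stem cells, had 2.22, 2.28 and 2.53 CPM in male L345 and 2.43, 3.55 and 2.41 CPM in female L345. It had 1.15, 1.31 and 0.902 CPM in male L6S1 and 1.65, 2.26 and 2.89 CPM in female L6S1. All male L6S1 libraries lay below every L345 library, while female L6S1 B and C reached into the L345 range. The log2 fold change was -0.68 ± 0.21 over both sexes (edgeR adjusted p = 0.0817). It passed without female L6S1 A, at a smaller -0.59 ± 0.20 (edgeR adjusted p = 0.0441), where 4031 genes were called in place of 356. Males had -1.06 ± 0.30 (edgeR adjusted p = 0.325). Females had -0.29 ± 0.29 (edgeR adjusted p = 0.533). The difference between the sexes was 0.77 ± 0.41 (edgeR adjusted p = 0.871).

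Hoxb5 (chr11:96303336-96306121), known in enteric neural crest cells as a regulator of Ret, was the most abundant member. Hoxb5 had 34.1, 24.5 and 36.3 CPM in male L345 and 31.1, 36.3 and 43.5 CPM in female L345. In L6S1 it had 14.5, 10.4 and 18.4 CPM in males and 17.7, 9.90 and 14.7 CPM in females. The highest L6S1 library (male L6S1 C) stayed below the lowest L345 library (male L345 B). Over 6 libraries per level, Hoxb5 fell from 34.3 ± 6.30 to 14.3 ± 3.55 CPM (SD, n = 6). Its log2 fold change, -1.26 ± 0.18, passed the test (edgeR adjusted p = 0.00262). The antisense gene Hoxb5os shares 3.59% of the exon bases of Hoxb5 and had 0.244 ± 0.0692 and 0.227 ± 0.0566 CPM (SD, n = 6), too little for the test.

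Hoxb6 (chr11:96292476-96301569), a trunk patterning gene, was lower at L6S1 by a wider margin. It had 44, 32 and 54 counts in male L345, 40, 50 and 75 in female L345, 9, 7 and 9 in male L6S1, and 8, 7 and 12 in female L6S1. Every library was above the floor and the levels did not overlap. Hoxb6 went down from 2.02 ± 0.456 to 0.381 ± 0.0913 CPM (SD, n = 6), or by -2.41 ± 0.26 in log2 terms (edgeR adjusted p = 0.000145).

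Hoxb7 (chr11:96286623-96290162), whose promoter is widely used to drive transgenes in the ureteric bud, changed most. It had 4.15, 4.16 and 4.50 CPM in male L345 and 3.03, 3.98 and 5.86 CPM in female L345. In L6S1 it had 0.595, 0.465 and 0.413 CPM in males and 0.610, 0.391 and 0.586 CPM in females. The lowest L345 library held 81 counts and the highest L6S1 library 15. Hoxb7 fell from 4.28 ± 0.919 to 0.510 ± 0.0985 CPM (SD, n = 6), a log2 fold change of -3.06 ± 0.23 with a 95% confidence interval from -3.56 to -2.57 (edgeR adjusted p = 1.3e-05). No other of the 15281 tested genes had a lower log2 fold change in this fit.

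**Figure D2:**
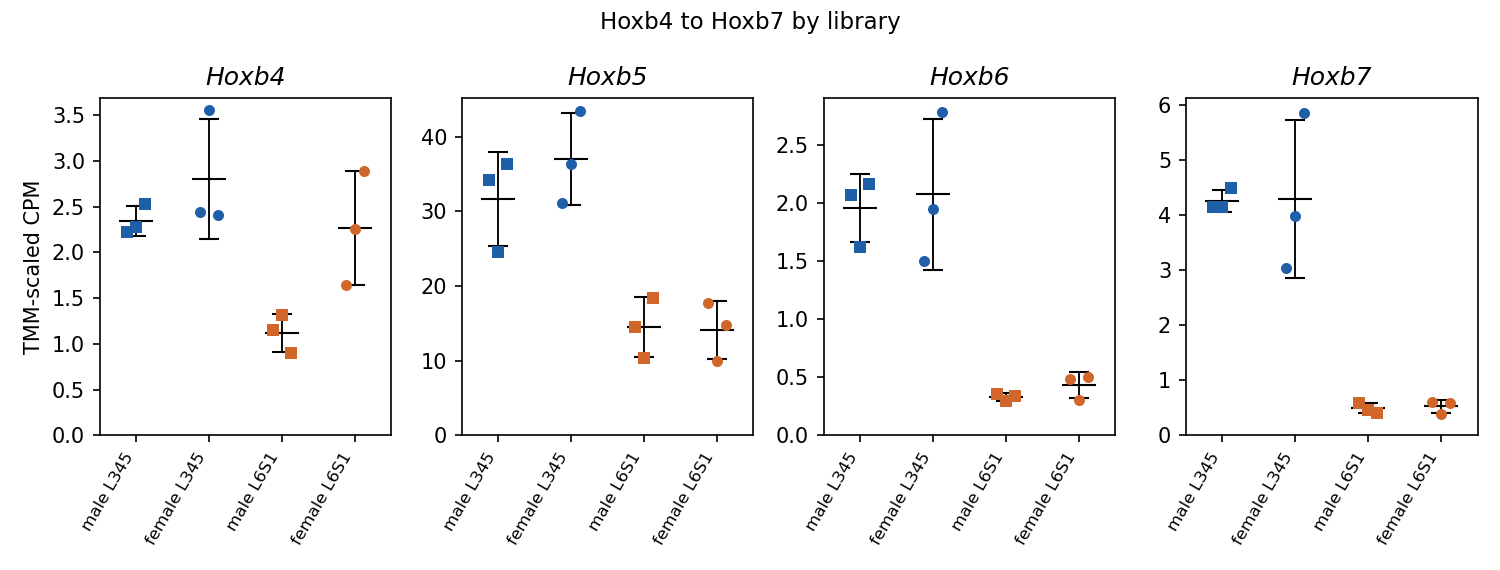
TMM-scaled CPM of Hoxb4, Hoxb5, Hoxb6 and Hoxb7 in each library by group, with the mean and SD of 3 libraries (black). For Hoxb5, Hoxb6 and Hoxb7 all 6 L6S1 points lie below all 6 L345 points, whereas 2 female L6S1 points of Hoxb4 (2.26 and 2.89 CPM) lie in the L345 range.

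Hoxb8 (chr11:96281905-96285315), which lies next to Hoxb7 and is required in mice for normal grooming and sensory responses, was not detectable at this depth. It had 1 count in female L345 B, 1 in female L6S1 B and 0 in the other libraries. A gene with 9 to 158 counts (Hoxb7) thus adjoined one without a reliable count. The cluster also holds 2 microRNA genes, Mir196a-1 between Hoxb13 and Hoxb9 and Mir10a between Hoxb5 and Hoxb4. Their hairpins had 1 count and 0 counts over the 12 libraries, and mature microRNAs were not measured in these long-RNA libraries. The mature microRNAs are shown because Hoxb8 is a textbook target of miR-196a. Their sequences are from RefSeq (GRCm38.p6), at chr11:96265187-96265208 and chr11:96317186-96317208 on the plus strand, written 5′ to 3′ with the seed (bases 2 to 8) in capitals:
miR-196a-5p: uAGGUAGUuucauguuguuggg
miR-10a-5p: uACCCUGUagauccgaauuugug

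The best ungapped pairing of miR-196a-5p with the 3′ UTR of each member was then read from GENCODE M21 transcripts. Capitals mark bases that pair with the microRNA as A-U, T-A, C-G or G-C, and lower case marks all others. The sites lie at chr11:96284888-96284909 (Hoxb8), chr11:96289784-96289805 (Hoxb7) and chr11:96301373-96301394 (Hoxb6), on the plus strand:
Hoxb8 site: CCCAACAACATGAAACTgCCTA
Hoxb7 site: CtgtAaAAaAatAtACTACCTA
Hoxb6 site: tggAAggAgcacAtACTACCTA

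In the Hoxb8 site, 21 of 22 bases paired in this way and the remaining base formed a G-U pair. Hoxb7 and Hoxb6 paired at 14 and 12 bases, with all 7 seed bases among them. No other member exceeded 14 pairs. The complement of the miR-196a-5p seed, ACTACCT, occurred in the 3′ UTR of 3 of 10 members (Hoxb1, Hoxb6 and Hoxb7) and of 6.1% of 21020 genes. That of miR-10a-5p, ACAGGGT, occurred in 1 of 10 members (Hoxb3) and in 12.5% of genes. These matches describe letters only, on the transcript strand, and no role of either microRNA in the levels above was tested.

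Hoxb9 (chr11:96271457-96276595), which patterns the thoracic ribs, differed between libraries without regard to level. Its counts were 14, 0 and 8 in male L345, 7, 33 and 10 in female L345, 1, 11 and 5 in male L6S1, and 10, 5 and 29 in female L6S1. The highest libraries, female L345 C and female L6S1 C, belong to different levels. Hoxb9 had 0.484 ± 0.447 and 0.456 ± 0.425 CPM (SD, n = 6), and the log2 fold change was -0.21 ± 0.67 (edgeR adjusted p = 0.850). The uncharacterised gene Gm53, which lies between Hoxb13 and Hoxb9, had 17, 1 and 14 counts in male L345, 1, 26 and 9 in female L345, 5, 15 and 6 in male L6S1, and 10, 3 and 15 in female L6S1. Female L345 C was highest for both genes, and female L345 B went the other way, with 7 counts of Hoxb9 and 1 of Gm53. Gm53 was not called either (-0.24 ± 0.65, edgeR adjusted p = 0.827). Hoxb13, the 5′ member known from prostate and tail development, had 1 count in female L6S1 B, 1 in female L6S1 C and 0 elsewhere.

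**Figure D3:**
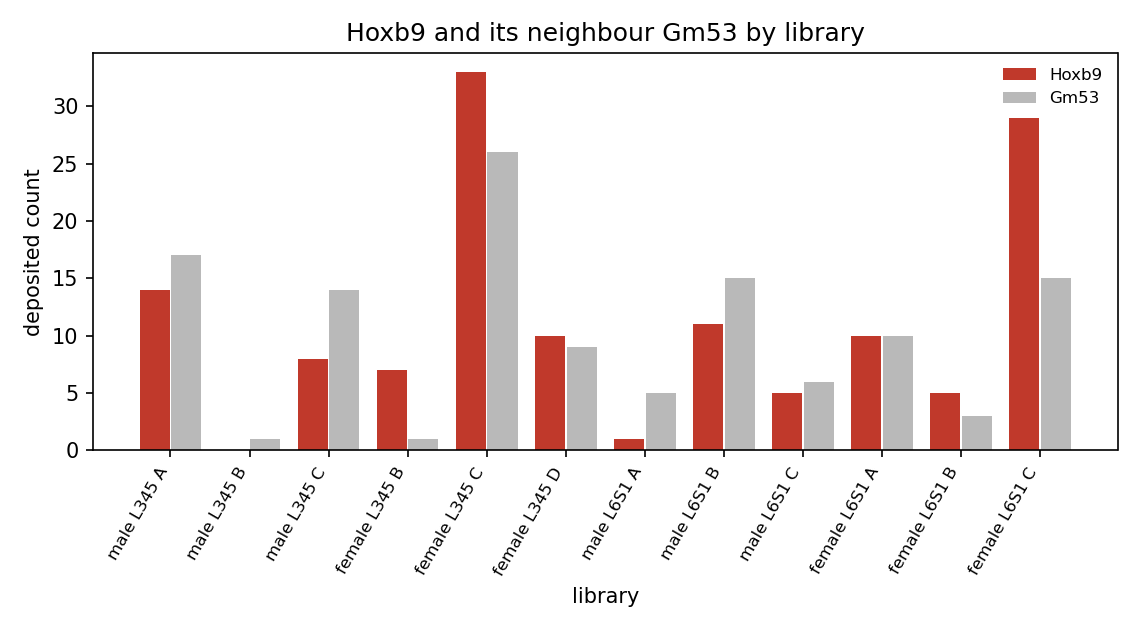
Deposited counts of Hoxb9 and of its neighbour Gm53 in each of the 12 libraries, ordered by group. Counts of Hoxb9 run from 0 to 33 at L345 and from 1 to 29 at L6S1, with a high library at each level.

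Levels of different members were compared per length, with the deposited RPKM (counts per kilobase of exon, scaled to the library total). At L345 the order was Hoxb5 at 12.5 ± 2.30, Hoxb7 at 2.80 ± 0.595, Hoxb6 at 1.04 ± 0.234, Hoxb4 at 1.01 ± 0.195, Hoxb3 at 0.411 ± 0.0982, Hoxb9 at 0.191 ± 0.176 and Hoxb2 at 0.0953 ± 0.0345 RPKM (SD, n = 6). Hoxb5, Hoxb7 and Hoxb6 stood apart from each other in all 6 libraries, as did Hoxb4 from Hoxb3. Hoxb6 exceeded Hoxb4 in only 3 of 6 libraries, and the ranges of Hoxb3, Hoxb9 and Hoxb2 overlapped from each to the next.

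At L6S1 the order behind Hoxb5 differed, with Hoxb4 ahead of Hoxb7 and Hoxb3 ahead of Hoxb6 in the means. Hoxb5 had 5.08 ± 1.32, Hoxb4 0.650 ± 0.279, Hoxb7 0.327 ± 0.0625, Hoxb3 0.235 ± 0.132, Hoxb6 0.192 ± 0.0458, Hoxb9 0.174 ± 0.159 and Hoxb2 0.0390 ± 0.0447 RPKM (SD, n = 6). Only Hoxb5 stood clear of the next member. Hoxb4 exceeded Hoxb7 in 6 of 6 libraries, although their ranges over libraries met. The summed RPKM of the 10 members was 13.6 to 22.6 at L345 and 4.97 to 8.35 at L6S1. Hoxb5 made up 64.5 to 72.5% of it at L345 and 68.2 to 82.3% at L6S1, whereas Hoxb7 made up 12.8 to 19.8% and 3.33 to 5.95%.

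**Figure D4:**
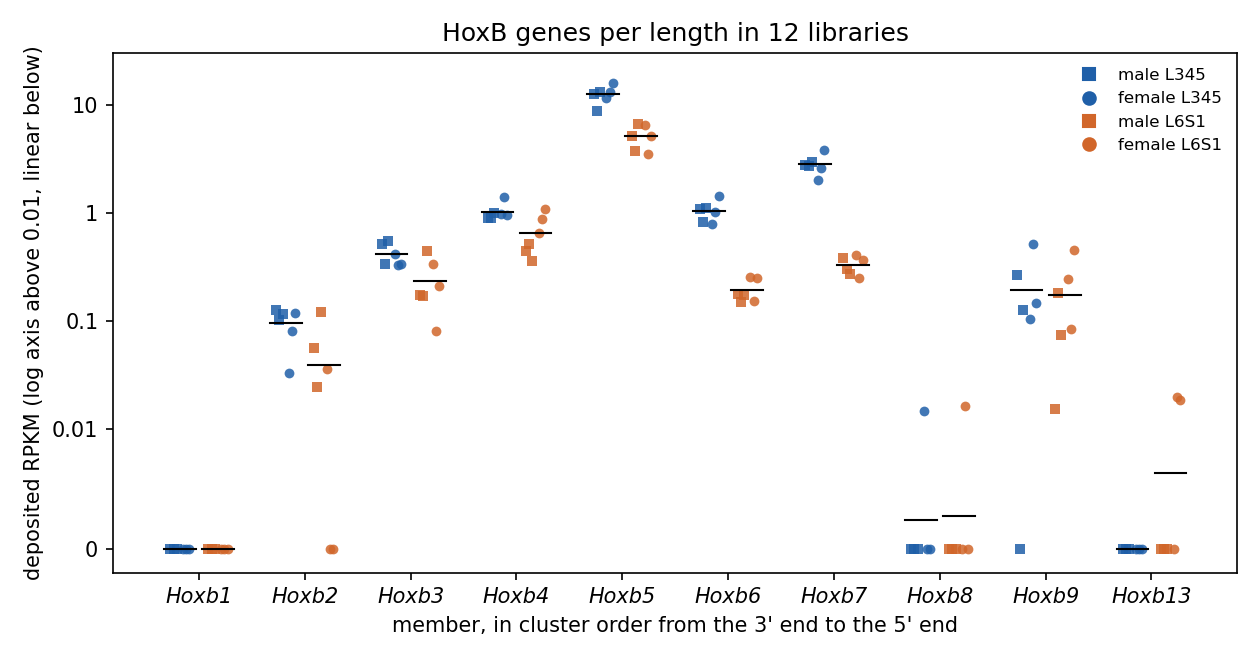
Deposited RPKM of the 10 members in each library, in cluster order (log axis above 0.01 RPKM, linear below), with the mean of 6 libraries per level as a black bar. Hoxb5 is highest at both levels, the levels part most at Hoxb6 and Hoxb7, and Hoxb8 lies near 0 between Hoxb7 and Hoxb9.

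Ratios within a library showed how unequal the change was along the cluster. The log2 ratio of Hoxb5 to Hoxb6 (CPM plus 0.1) was 3.84 to 4.29 at L345 and 4.62 to 5.40 at L6S1, and that of Hoxb6 to Hoxb7 was -1.31 to -0.97 and -0.60 to -0.19. In both pairs the levels did not overlap, with the gene nearer the 5′ end losing more. These genes are the called members, and how often ratios of other gene pairs part between levels was not tested. The ratios of Hoxb2 to Hoxb3, Hoxb3 to Hoxb4, Hoxb4 to Hoxb5 and Hoxb7 to Hoxb9 overlapped between levels, the last with 1.56 to 5.41 and -0.94 to 2.32. Across the 12 libraries, which share the level difference, log2 CPM of Hoxb6 and Hoxb7 had a Pearson r of 0.99, Hoxb5 and Hoxb6 of 0.95, and Hoxb5 and Hoxb7 of 0.93. Hoxb9 had an r of -0.24 to 0.45 with the other tested members.

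The fall of Hoxb6 and Hoxb7 was present in each sex. In males, edgeR called 2 of the 7 tested members, against 0.222% of all tested genes, and both were lower, against 0.0393% called lower. Hoxb7 was at -3.11 ± 0.33 (edgeR adjusted p = 0.000636), Hoxb6 at -2.55 ± 0.37 (edgeR adjusted p = 0.00688) and Hoxb5 at -1.13 ± 0.26 (edgeR adjusted p = 0.145). The call of Hoxb6 in males was lost without male L6S1 B (edgeR adjusted p = 0.0563) and without male L6S1 C (edgeR adjusted p = 0.0550). In females, edgeR called 3 of 7, against 0.36% of all tested genes, and all 3 were lower, against 0.0524% called lower. Limma-voom called 5 of 7 members in males, against 12.2% of all tested genes, and 0 of 7 in females, against 0.34%. Hoxb7 was at -3.02 ± 0.33 (edgeR adjusted p = 0.000512), Hoxb6 at -2.26 ± 0.36 (edgeR adjusted p = 0.0114) and Hoxb5 at -1.39 ± 0.26 (edgeR adjusted p = 0.0342). The female call of Hoxb5 held in 4 of 12 fits that left out 1 library and was weakest without female L345 C (edgeR adjusted p = 0.147), where the call of Hoxb6 was lost as well (edgeR adjusted p = 0.0510).

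Neither sex nor its interaction with level passed for any member. The interaction (log2 fold change of females minus that of males) was called by edgeR for 0 of 7 members, with 0 at an unadjusted p under 0.05 and 0 by DESeq2 and by limma-voom, and for 0% of all tested genes (713, or 4.67%, at an unadjusted p under 0.05). For Hoxb7 it was 0.09 with a 95% confidence interval from -0.90 to 1.07, and for Hoxb5 -0.26 with an interval from -1.04 to 0.52. Female against male, edgeR called 0 of 7 members and 0.0589% of all tested genes. At an unadjusted p under 0.05, passed by 5.96% of all tested genes, there were 2 members, Hoxb4 at 0.64 ± 0.21 and Hoxb2 at -1.62 ± 0.63 (both edgeR adjusted p = 0.764), and DESeq2 and limma-voom called 0. Without female L6S1 A, edgeR called 1 member by sex.

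The libraries were deposited in 2 blocks, and 4 of the 12 (female L345 D, male L6S1 C, and B and C of female L6S1) came in the second. In the 8 libraries of the first block alone, female L6S1 is represented by library A only. The log2 fold change in that block was -2.77 for Hoxb7, -2.20 for Hoxb6 and -1.15 for Hoxb5. The second block has a single L345 library and allows no test of its own. There, Hoxb7 had 158 counts in female L345 D and 9, 14 and 11 in the L6S1 libraries. Without female L6S1 B and C, which again leaves only female L6S1 A in its group, Hoxb7 was at -2.96, Hoxb6 at -2.32 and Hoxb5 at -1.10. Immune, fibroblast and small-neuron marker sums were also higher in all L6S1 libraries, and their part in the fall was not tested. Of the 12 small-neuron markers, 2 were called higher and 0 lower. Scn10a, the gene that carries Cre, averaged less in L6S1 libraries, 429 ± 66.5 against 573 ± 96.0 CPM (SD, n = 6). For Ret the means, in the same order, were 165 ± 33.6 and 176 ± 27.5 CPM (SD, n = 6). The ranges of both genes overlapped between levels.

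The paralogs of the HoxB genes in the other clusters, which descend from the same ancestral genes and share a paralog number, were set beside them. Among paralogs 5 to 8 of the other clusters, the 4 called genes (Hoxa5, Hoxa6, Hoxc6 and Hoxc8) all fell. Hoxa5 (-1.08 ± 0.21, edgeR adjusted p = 0.0195) stood beside -1.26 ± 0.18 for Hoxb5, and Hoxa6 (-2.13 ± 0.47, edgeR adjusted p = 0.0345) and Hoxc6 (-2.05 ± 0.39, edgeR adjusted p = 0.0176) beside -2.41 ± 0.26 for Hoxb6. Hoxc5 was not called (-0.44 ± 0.30, edgeR adjusted p = 0.345). Paralog 7 differed in size: Hoxa7 had 41.6 ± 4.04 and 30.8 ± 7.05 CPM (SD, n = 6) and a log2 fold change of -0.44 ± 0.15 that did not pass (edgeR adjusted p = 0.0990), beside -3.06 ± 0.23 for Hoxb7. The difference between paralog fold changes was not tested.

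Of paralog 8, Hoxb8 was under the floor while Hoxc8 fell (-1.11 ± 0.24, edgeR adjusted p = 0.0327) and Hoxd8 had 23.0 ± 3.69 and 26.9 ± 5.63 CPM (SD, n = 6; 0.23 ± 0.14, edgeR adjusted p = 0.315). Hoxc9 fell (-0.81 ± 0.19, edgeR adjusted p = 0.0387) and Hoxd9 rose (1.43 ± 0.21, edgeR adjusted p = 0.00255), beside -0.21 ± 0.67 for Hoxb9. Hoxa9, with 47.5 ± 5.52 and 32.1 ± 9.22 CPM (SD, n = 6), was not called (-0.57 ± 0.18, edgeR adjusted p = 0.0843). The HoxB cluster has no gene of paralogs 10 to 12. There, Hoxd10 (3.42 ± 0.34, edgeR adjusted p = 0.000105), Hoxd11 (3.53 ± 0.35, edgeR adjusted p = 0.000112), Hoxc11 (3.85 ± 0.57, edgeR adjusted p = 0.00310) and Hoxc10 (1.03 ± 0.19, edgeR adjusted p = 0.0153) rose. Hoxa10 did not, with 55.9 ± 3.33 and 46.1 ± 8.77 CPM (SD, n = 6), and was not called (-0.30 ± 0.11, edgeR adjusted p = 0.120). By cluster, 0 rose and 2 fell of 8 tested HoxA genes, 2 rose and 3 fell of 7 HoxC genes, and 3 rose and 0 fell of 5 HoxD genes, against 2.33% called over all genes.

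**Figure D5:**
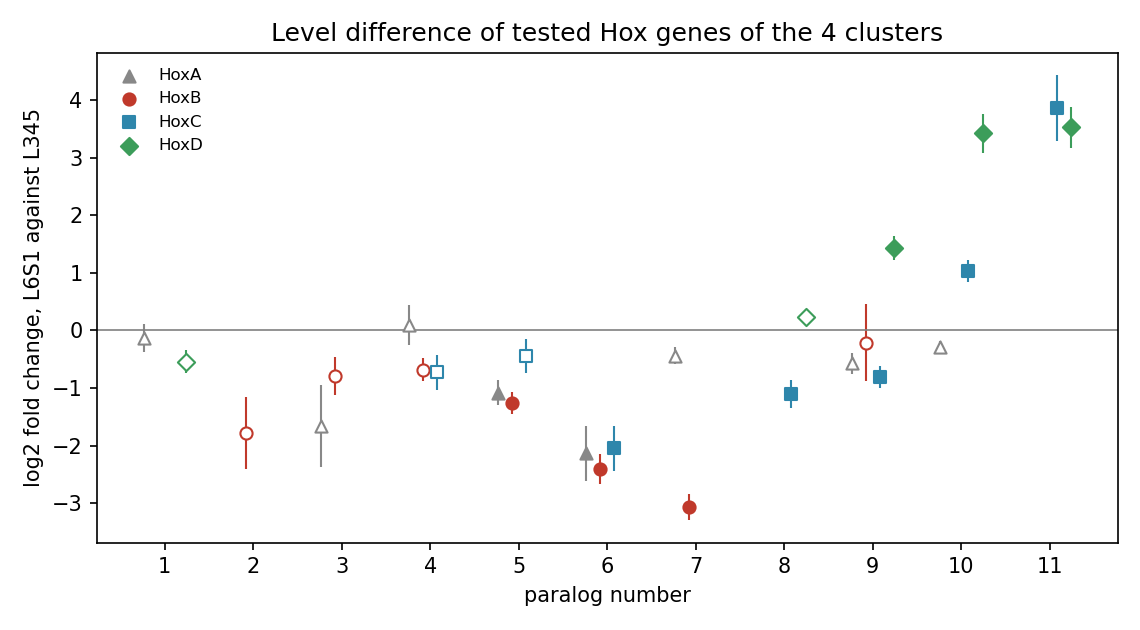
Log2 fold change between L6S1 and L345 with its SE for the tested genes of the 4 Hox clusters by paralog number, filled where the edgeR adjusted p was under 0.05 and open otherwise. Points of paralogs 5 to 7 lie below 0, and the called points of paralogs 10 and 11, where HoxB has no gene, lie above it.

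The tested genes beside the cluster did not pass, but they were few and mostly low in counts. Within 100 kb of the members the tables hold 14 other genes, of which 5 were tested (Ttll6, Gm11539, Gm53, Gm11536 and Hoxb3os), with a median log2 fold change of -0.24. EdgeR called 0 of these 5, as did DESeq2 and limma-voom, and 0 were at an unadjusted p under 0.05. Over all tested genes the shares were 2.33%, 9.94%, 21.4% and 26.6%, so 0 of 5 cannot be told from the background. Gm11539, Gm53, Gm11536 and Hoxb3os had no more than 26 counts in any library. Hoxb5os and Hoxb3os, transcribed from the opposite strand and overlapping some of the members, are among the 14.

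The tested genes known to act with or on the HoxB genes were not called by edgeR either. Of 9 TALE cofactors edgeR called 0 (1 at an unadjusted p under 0.05, 1 by DESeq2 and 1 by limma-voom), with a median log2 fold change of -0.08; the sign of Pbx2 and Pbx3 flipped under upper-quartile scaling. The list of 34 regulators of Hox genes included retinoic acid receptors, Cdx factors and Trithorax and Polycomb subunits. Of these 34, 30 were tested, and the Cdx factors were all too low in counts for the test. Among the 30, edgeR called 0 (7 at an unadjusted p under 0.05, 4 by DESeq2 and 5 by limma-voom), with a median of -0.22. Over all tested genes the shares were 26.6% at an unadjusted p under 0.05, 9.94% by DESeq2 and 21.4% by limma-voom, so these counts of regulators are near the background. EdgeR called 2.33% of all tested genes, so 0 calls in lists of 9 and 30 genes are near the background too.

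Outside the HoxB members themselves, the genes whose levels followed Hoxb5 and Hoxb7 most closely were found by the correlation of log2 CPM over the 12 libraries, all of which share the level difference. Among the members, Hoxb7 had a higher r with Hoxb6 (0.99) and Hoxb5 (0.93) than with any of the genes named here. For Hoxb5 they were Insrr, a receptor of the insulin receptor family (r = 0.95), Unc13a, a synaptic vesicle priming factor (r = 0.93), and Wipi2, an autophagy gene (r = 0.93). For Hoxb7, members again left out, they were H2afy, a histone variant gene (r = 0.91), Bcl11b, a zinc finger transcription factor (r = 0.90), and Insrr (r = 0.90). Insrr had 5.06 ± 1.08 and 2.05 ± 0.628 CPM (SD, n = 6) at L345 and L6S1, a fall that passed the test (-1.31 ± 0.23, edgeR adjusted p = 0.0118). Bcl11b had 6.64 ± 1.20 and 3.62 ± 0.242 CPM (SD, n = 6) and passed too (-0.86 ± 0.15, edgeR adjusted p = 0.00923).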

How the data were processed

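RNA of 12 libraries was amplified from 10 ng with 12 PCR cycles, per the labels' protocols. The authors deposited whole-number counts, CPM and RPKM per Ensembl gene. Per the submitters' processing notes, Subread and featureCounts 1.4.5 were used with build GRCm38.p2. Neither strand setting nor annotation release is given in the sources used here. In 12 of 12 libraries, scaling the deposited counts to their total gave the deposited CPM, and dividing by gene length gave the deposited RPKM.

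Counts were fitted with edgeR 4.0.16 (R 4.3.3): TMM scaling, filterByExpr by group, robust quasi-likelihood, 4 group means, 8 residual degrees of freedom. CPM in the text is TMM-scaled, except the marker sums, which use each library's own total. Symbols came from GENCODE M21 (97.3% of genes). The code was tested on simulated counts. Alternatives used DESeq2 1.42.0, voom from limma 3.58.1, scaling by RLE or the upper quartile, other filters, a submission term, a replicate block, GC and length offsets, and subsets of libraries. Replicate letters were not taken as pairs.

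The members and lists were chosen with earlier results of these data known. Named were all 10 members, up to 4 called genes per list, and the 3 best correlated genes outside the members for 2 members. Hoxa7, Hoxa9, Hoxa10, Hoxc5, Hoxc9, Hoxd8, Pbx2, Pbx3, Ret, Scn10a and the genes beside the cluster were named after their values were seen.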

Additional observations from a re-analysis of the deposited data

Results flagged for a closer look

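Among the L345 libraries, female L345 C stood far above the others for Hoxb4. It had 3.55 CPM, whereas the other L345 libraries had 2.22 to 2.53 CPM. In all, 14 sets of 6 libraries were checked (7 tested members at 2 levels), and chance alone marks about 5% of such sets. The same library had the highest Hoxb9 and Gm53 counts.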

How the results depend on the processing

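The calls of Hoxb5, Hoxb6 and Hoxb7 between levels held in all 23 alternatives run for each, with log2 fold changes of -1.36 to -1.10, -2.50 to -2.20 and -3.25 to -2.77. The count of called members, 3, was 5 with limma-voom, 6 with the replicate block and 3 to 6 when single libraries were left out. The 356 genes called over all genes became 545 with upper-quartile scaling, 1519 with DESeq2, 3268 with limma-voom, 841 with no filter, 125 with a submission term, 137 without female L6S1 B and C, 965 with GC and length offsets, 5335 with the replicate block, and 80 to 4031 when single libraries were left out. In males, 2 called members became 5 with limma-voom and 1 to 2 when single libraries were left out. In females, 3 became 0 with limma-voom and 1 to 4. By sex, 0 became 0 to 1. For these shifts the cause was not tested. For the replicate block, same-letter libraries correlated at 0.05, 0.08, 0.09, 0.23 and 0.02 in their deviations from group means. Libraries of one sex with different letters correlated at -0.30 to 0.24. Every male library and both female B libraries correlated best with their own letter, while female L345 C and female L6S1 C did not. Because the labels do not say whether pools shared mice, these values cannot settle whether the letters are pairs. The main fit did not take the letters as pairs.

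Hoxb9, never called, changed sign between levels when male L345 A (0.25), female L345 C (0.29), male L6S1 A (0.03) or female L6S1 B (0.01) was left out, in males without male L345 A (0.40), and in females with limma-voom (-0.15) or without female L345 B (-0.27), female L345 D (-0.18) or female L6S1 C (-0.66). Its values with single libraries left out ran from -0.69 to 0.29 between levels, from -1.48 to 0.40 in males and from -0.66 to 1.10 in females. Between levels and in females, DESeq2 gave no adjusted p for Hoxb2 or Hoxb9, and in males none for Hoxb2. The filter of 1 CPM removed both. With fewer than 12 counts of Hoxb2 per library, depth limits what can be said of it. Where a library left out leaves 2 in a group, their spread is assumed to be that of the other groups. The fits on the first block and without female L6S1 B and C leave a single female L6S1 library, without a spread of its own. Both fits are among the alternatives above.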
